A study of Mus musculus with 48 samples.

Results

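The mitochondrial protein import genes were chosen by symbol, as protein-coding mouse genes of the GENCODE M21 annotation whose names begin with Tomm, Timm, Samm, Mtx or Pmpc or are Pam16, Dnajc19 or Chchd4, with Tomm40l kept. The rule found 35 genes among 21695 protein-coding genes. By role they fall into 10 genes of the TOM complex and its receptors, 4 of the SAM complex, 8 of the intermembrane space, 2 of the TIM22 complex, 8 of the TIM23 complex and its motor, 2 subunits of the processing peptidase and Timmdc1. RNA from tissue of 46 mice in 8 groups was sequenced, and reads were counted per gene. In the dentate gyrus, the hippocampal region of the granule neurons, 5 Fmn2+/+ and 5 Fmn2-/- mice of 3 months and 3 Fmn2+/+ and 5 Fmn2-/- mice of 8 months were compared, to ask how loss of Fmn2, which encodes the actin nucleator formin 2, affects gene expression with age. A cross of these mice with the amyloid model APPPS1-21 gave 9 mice of 3 months labelled FMN2 +/+ APP and 7 labelled FMN2-/-_APP. A further 6 mice labelled wild type and 6 labelled APP, of 4 months by the labels and 3 months by the study's methods, carry PFC in their titles. All mice were on the C57BL/6J strain, the methods describe male mice, and the Fmn2-/- animals lacked the gene constitutively, so that every cell type and developmental stage was affected.

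Most mitochondrial proteins are encoded in the nucleus, made in the cytosol and imported. They enter through the TOM complex of the outer membrane, in which Tomm40 forms the channel and Tomm20, Tomm22 and Tomm70a are receptors. The SAM complex then inserts beta-barrel proteins into the outer membrane, small Timm chaperones carry hydrophobic proteins across the intermembrane space, the TIM22 complex inserts metabolite carriers into the inner membrane, and the TIM23 complex with its motor draws presequence proteins into the matrix, where the processing peptidase cuts the presequence. Neurons depend on this pathway because their synapses have a high demand for ATP.

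Between 6818809 and 43921030 reads were counted on genes per mouse, with 7 of the 8 mice of 8 months at 11675280 or below and all others at 16479658 or above. Lane went with genotype in part: at 3 months lane 5 held all Fmn2+/+ mice and Fmn2-/- replicate 1, lane 6 the remaining 4 Fmn2-/- mice, and at 8 months all mice but Fmn2+/+ replicate 1 were on lane 7. With lane as a covariate, the genotype difference therefore rests on Fmn2-/- replicate 1 at 3 months and on the lane 7 mice at 8 months. Levels are counts per 1000000 counted reads (CPM) on a TMM scale common to all 46 mice. Fmn2 itself lay between 77.1 and 109 CPM in Fmn2+/+ mice and between 21.6 and 28.2 in Fmn2-/- mice. In the cross it went against the labels, with 18.9 to 23.4 CPM in mice labelled FMN2 +/+ APP and 83.3 to 101.8 in mice labelled FMN2-/-_APP, so these groups are named by label only. In the mice with PFC in the title the tissue field reads dentate gyrus, but 6 granule cell markers summed to between 122 and 180 CPM, against 646 or more in every other mouse, and 6 markers of cortical projection neurons to between 637 and 729, against 351 or less. Choroid plexus markers, such as Ttr, summed to over 500 CPM in 3-month Fmn2-/- replicate 4, in 8-month Fmn2-/- replicates 2 and 3 and in labelled FMN2 +/+ APP replicates 4 and 5. The counts of 8-month Fmn2-/- replicates 2 and 3 differed by little more than sampling noise, with a chi-square of 1.58 for each degree of freedom. Other pairs of that group gave at least 3.28, and the 2 runs of 1 mouse in the cross groups gave 2.05 and 1.66. Where libraries differ, this chi-square grows with the reads counted. The runs held 13956011 to 27160440 reads, and replicates 2 and 3 held 9175551 and 9943023. Whether replicates 2 and 3 differed no more than runs of 1 mouse is therefore not settled by these values. The labels give them as separate samples, and they were counted as separate mice.

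To compare members with each other, CPM was divided by the length of all annotated exons of the gene in kilobases. This length can exceed that of the longest transcript, as in Pmpcb (5141 against 1615 bases), so the order depends on the length used. In CPM without this division, Tomm20 (mean 331) and Tomm70a (279) lay above Timm8b (90.1) in 3-month Fmn2+/+ mice. In 3-month Fmn2+/+ mice Timm8b, a small intermembrane space chaperone subunit, was highest with 174 ± 10.5 CPM per kilobase (SD, n = 5), and stood above the next member in every mouse. Tomm20, the presequence receptor, followed with 67.4 ± 2.24 CPM per kilobase (SD, n = 5). Tomm7, a small TOM subunit, with a mean of 42.1 CPM per kilobase, Tomm34, a cytosolic co-chaperone, with 36.1, and Timm10, a carrier chaperone, with 34.4 followed, each overlapping the next in the order. Most members lay between 2.40 CPM per kilobase in Tomm40l and 32.5 in Tomm22. A low group of Timm8a1, Timm23, Pam16 and Tomm6 lay between 0.181 and 0.542 CPM per kilobase. Tomm20l was at 0 counts in 11 of 46 mice and never above 5 counts, and Timm8a2 was at 0 in 26 mice and never above 4. Per kilobase, Timm8b and Tomm20 also led in the PFC-titled wild-type mice, at 83.8 ± 4.54 (SD, n = 6) and 53.9 ± 3.27 CPM per kilobase (SD, n = 6).

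**Figure D1:**
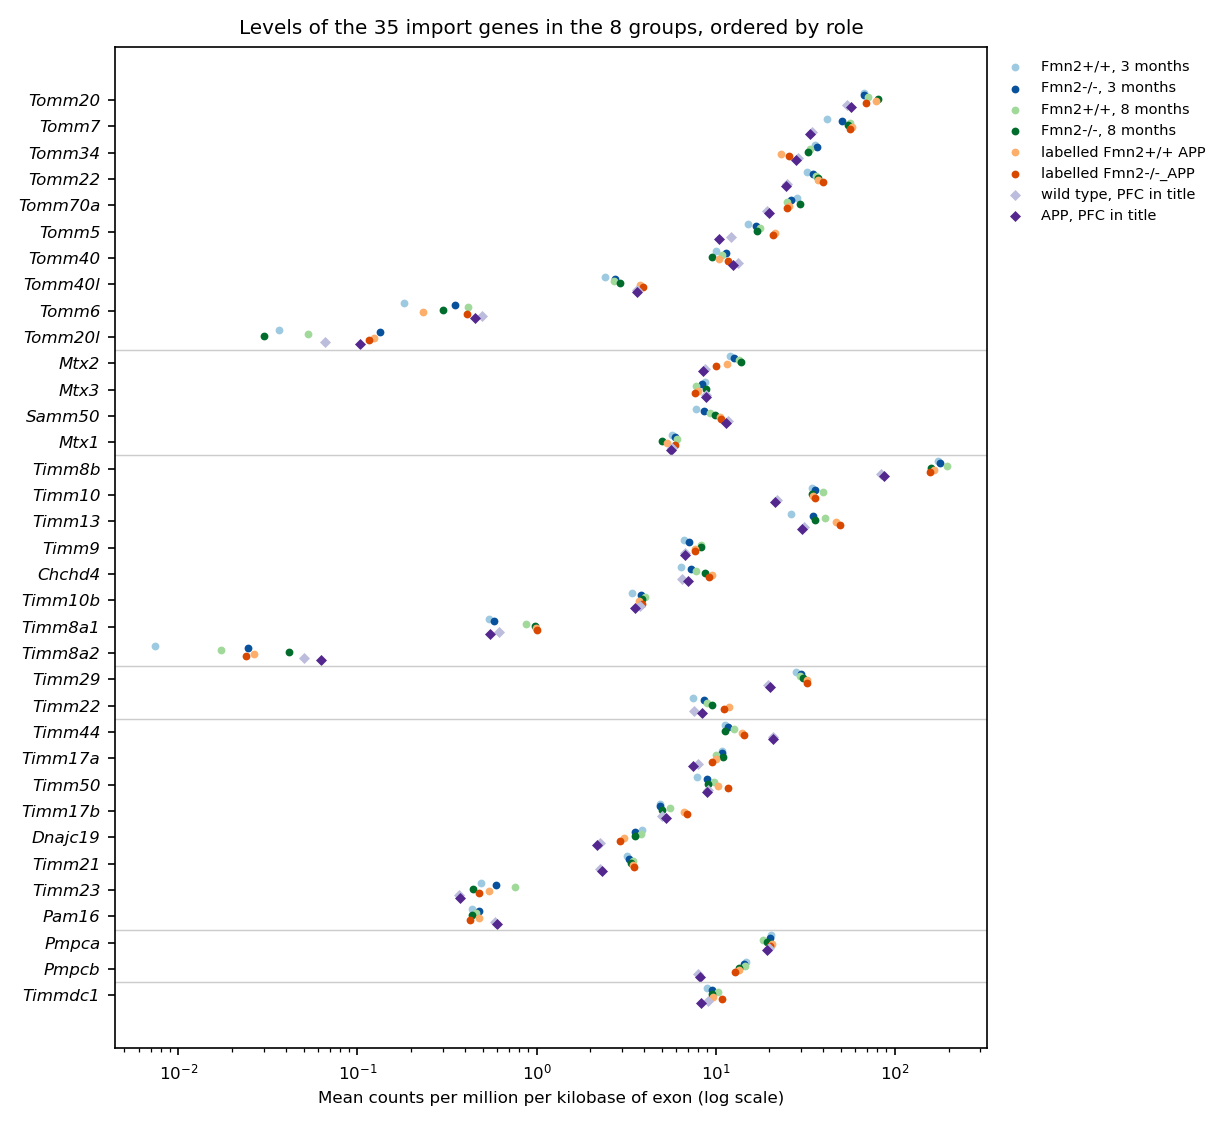
Mean level of each of the 35 genes in the 8 groups, in CPM per kilobase of exon on a log scale, with genes ordered by role and separated by lines (TOM, SAM, intermembrane space, TIM22, TIM23, processing peptidase, Timmdc1). Circles are the 6 dentate gyrus groups and diamonds the 2 groups with PFC in the title. Timm8b was highest in every group, and Timm8a1, Timm23, Pam16 and Tomm6 formed a low group above the near-silent Tomm20l and Timm8a2.

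The members of this low group share long stretches with other genes. Timm23, which encodes the channel of the presequence translocase, had a median of 20 reads per mouse, and 95.6% of its longest transcript matched other genes at 95% identity or more over at least 100 bases. The closest, Gm10273 on chromosome 10, was listed at 0 counts in all 46 mice. Pam16, a motor subunit, was matched over 89.6% by Gm9803, Tomm6, a small TOM subunit, over 87.6% mainly by the overlapping gene Gm21981, and Timm8a1, the deafness-dystonia homologue, over 43.1% by Gm9797. Their counts are therefore uncertain, and reads that map to more than a single gene may not have been counted. Of the members at 2.40 CPM per kilobase or above, the largest share was 68.9% in Tomm40l, which overlaps Nr1i3 on the opposite strand, and the library kit does not keep the strand. How far shared sequence lowered these levels was not tested.

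**Figure D2:**
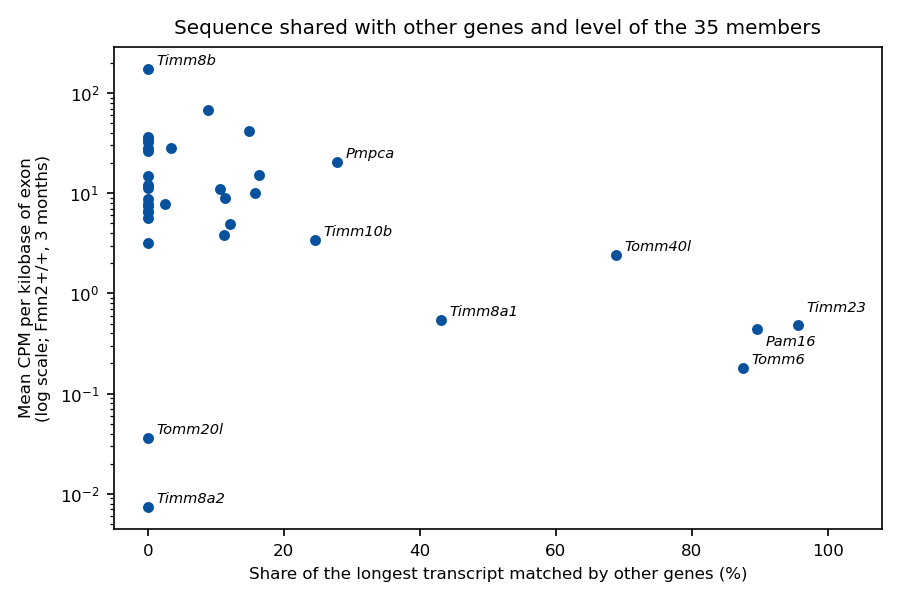
Share of each member's longest transcript matched by other genes, in percent, against its mean level in 3-month Fmn2+/+ mice, in CPM per kilobase of exon on a log scale. Each point is a gene. The 3 members matched over more than 80% of their length, Timm23, Pam16 and Tomm6, all lay below 0.5 CPM per kilobase, while Tomm20l and Timm8a2 were lower still with no match.

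Levels also differed between the dentate gyrus and the PFC-titled mice. Of the 32 members tested at 3 months, 13 were lower in all 6 PFC-titled wild-type mice than in all 5 Fmn2+/+ mice of 3 months (40.6%, against 28.7% of all genes tested) and 6 were higher (18.8%, against 27.6%). The median ratio of PFC-titled to dentate gyrus means was 0.983 over these members and 0.997 over all genes. Timm8b was at 0.481 times the mean CPM of the dentate gyrus, Pmpcb, the catalytic subunit of the processing peptidase, at 0.538 times, and Dnajc19, a motor co-chaperone, at 0.585 times. Timm44, which tethers the motor to the channel, was at 1.85 times, Samm50, the core of the SAM complex, at 1.53 times and Tomm40 at 1.33 times. The summed level of all 35 members was 494 ± 9.61 CPM per kilobase (SD, n = 6) in the PFC-titled wild-type mice against 644 ± 17 (SD, n = 5) at 3 months in the Fmn2+/+ dentate gyrus. Much of this gap lay in Timm8b, since the other 34 members summed to 410 ± 9.03 CPM per kilobase (SD, n = 6) and 469 ± 8.36 (SD, n = 5). These groups differ in tissue, age and study arm at the same time, so no test was made, and in bulk tissue fewer cells of a type and less RNA per cell cannot be told apart.

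At 3 months, 0 of 32 members tested passed the thresholds of edgeR's quasi-likelihood test (adjusted p under 0.05 with a log2 fold change of 0.25 or more in size) between Fmn2-/- and Fmn2+/+ mice. Of 16630 genes tested, 0.0301% passed. At an unadjusted p under 0.05 there were 7 members, all with higher values in Fmn2-/- mice (Timm13, Tomm7, Tomm40, Timm50, Chchd4, Timm22 and Tomm22), where 6.35% of all genes were higher and 4.17% lower at that p (10.5% in all). The log2 fold change was above 0 in 25 of the 32 members, with a median of 0.09, where 51.1% of all genes lay above 0 with a median of 0.004. With a mouse left out the members' median ran from 0.06 to 0.09, and over the other alternatives from 0.03 to 0.11. The SD between mice of the median log2 level of the members was 0.0988 in this comparison, about as large as the median difference. By role, the median was 0.12 over the TOM genes and over the intermembrane space genes, 0.04 over the TIM23 genes and -0.04 over the 2 peptidase subunits. With DESeq2 in place of edgeR, 1 member passed, Timm13. Over the alternatives other than leaving out a mouse, between 2 and 90 genes of all passed, against 5 in the main fit.

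Timm13 (ENSMUSG00000020219, mm10 chromosome 10 from 80899450 to 80900969, minus strand) forms a hexameric chaperone with Timm8 proteins that hands inner membrane proteins to the TIM22 complex. Its level was 35.9, 34.96, 35.5, 36.7 and 37.5 CPM in the 5 Fmn2+/+ mice of 3 months and 43.9, 44.7, 46.7, 48.7 and 56.3 CPM in the 5 Fmn2-/- mice. The lowest Fmn2-/- mouse lay above the highest Fmn2+/+ mouse, and Fmn2-/- replicate 1, on the lane of the Fmn2+/+ mice, was the lowest of its group. The log2 fold change was 0.41 (standard error 0.068, edgeR adjusted p = 0.0723). It passed with DESeq2 (adjusted p = 0.000214) and without a filter on low counts (adjusted p = 0.0348 by edgeR). It also passed without Fmn2-/- replicate 1 (adjusted p = 0.0236 by edgeR). That fit left all Fmn2+/+ mice on lane 5 and all Fmn2-/- mice on lane 6, so lane and genotype cannot be told apart in it. Timm13 did not pass without any other single mouse (edgeR adjusted p from 0.121 to 0.327). The same held with a correction of each library for length and GC content (0.28, edgeR adjusted p = 0.309). With lane as a covariate it did not pass either, at 0.28, where the genotype difference rests on Fmn2-/- replicate 1.

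Tomm40 (ENSMUSG00000002984, chromosome 7 from 19701313 to 19715438, minus strand), the channel of the outer membrane, was at 46.6, 45.0, 45.1, 46.6 and 45.7 CPM in Fmn2+/+ mice of 3 months and at 48.3, 49.8, 52.5, 51.7 and 56.1 CPM in Fmn2-/- mice. These groups did not overlap either, but the log2 fold change of 0.17 (standard error 0.05) had an edgeR adjusted p of 0.278. With lane as a covariate the value was 0.08. Timm8b (ENSMUSG00000039016, chromosome 9 from 50603910 to 50605320, plus strand) was at 83.9, 97.4, 89.1, 86.5 and 93.8 CPM in Fmn2+/+ mice and at 93.3, 96.3, 87.9, 97.96 and 87.5 CPM in Fmn2-/- mice, with overlapping groups and a log2 fold change of 0.03 (standard error 0.053, edgeR adjusted p = 0.861). Over all members, 5 of 32 lay without overlap above the Fmn2+/+ range in all Fmn2-/- mice and 0 lay below, where 2.13% of all genes were higher and 0.583% lower. These 5 were Timm13, Tomm40, Tomm7, Tomm22 and Timm50.

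At 8 months again 0 of 32 members passed in edgeR's test, where 1.13% of 14665 genes did. There were 9 members at an unadjusted p under 0.05, against 23.3% of all genes (10.9% higher and 12.5% lower). In 4 of them, Chchd4, Mtx3, Tomm70a and Tomm20, values were higher in Fmn2-/- mice, and in 5, Timm8b, Timm13, Timm10, Mtx1 and Timm44, lower. The log2 fold change was below 0 in 18 members and above 0 in 14, where 51.2% of all genes lay above 0, with a median of -0.03 against 0.006 over all genes. Of the intermembrane space genes, 4 of 7 had an unadjusted p under 0.05, and of the TOM genes 2 of 8. With DESeq2, 1 member passed, Timm8b. Over the alternatives other than leaving out a mouse, between 3 and 1124 genes of all passed, against 166 in the main fit.

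Timm8b was at 107.2, 99.2 and 98.98 CPM in the 3 Fmn2+/+ mice of 8 months and at 89.5, 84.1, 74.9, 77.1 and 86.1 CPM in the 5 Fmn2-/- mice. Every Fmn2-/- mouse lay below every Fmn2+/+ mouse, and the log2 fold change was -0.30 (standard error 0.074, edgeR adjusted p = 0.0595). DESeq2 gave an adjusted p of 0.0157, and the fit without a filter on low counts 0.0224. With lane as a covariate the value was -0.27 (edgeR adjusted p = 0.331), and with the correction for length and GC content -0.15 (edgeR adjusted p = 0.282). Timm13 was at 62.8, 52.2 and 53.7 CPM in Fmn2+/+ mice and at 49.6, 49.7, 50.9, 48.4 and 49.0 CPM in Fmn2-/- mice, where the log2 fold change was -0.19 (standard error 0.072, edgeR adjusted p = 0.155). These groups did not overlap, and the Fmn2+/+ mouse on lane 6, replicate 1, was the highest. Tomm40 was at 56.4, 42.9 and 46.3 CPM in Fmn2+/+ mice and at 42.3, 41.2, 47.1, 43.1 and 41.5 CPM in Fmn2-/- mice, with overlapping groups and a log2 fold change of -0.18 (standard error 0.09, edgeR adjusted p = 0.241). Here replicate 1 alone lay above all Fmn2-/- mice. Over all members 4 of 32, Timm8b, Timm13, Timm10 and Timm17b, were lower in every Fmn2-/- mouse and 0 were higher, where 6.76% of all genes were lower and 4.98% higher.

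The 8-month values depended on 2 libraries. Without Fmn2+/+ replicate 2, the shallowest, 6 members passed (Tomm20, Tomm70a and Mtx3 higher, Timm8b, Tomm40 and Mtx1 lower), with 3087 genes of all passing. Without Fmn2+/+ replicate 1, which leaves lane 7 only, 0 members passed, and the log2 fold changes of Timm8b, Timm13 and Tomm40 were -0.27, -0.10 and -0.05. These equal the values with lane as a covariate, so the lane fit is not a separate check. The microglial markers summed to between 217 and 243 CPM in Fmn2+/+ mice and between 260 and 289 in Fmn2-/- mice of 8 months, with 0 of 4 called. Astrocyte markers summed to between 1160 and 1220 CPM and between 1280 and 1500, with 1 of 4 called higher. Granule cell markers summed to between 798 and 842 CPM and between 764 and 911. Of these, 1 of 6 was called lower, and their median log2 fold change was 0.05. Oligodendrocyte markers summed to between 2400 and 3070 CPM and between 1750 and 2530, with a median of -0.31 and 0 of 4 called. Their part in these values was not tested.

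**Figure D3:**
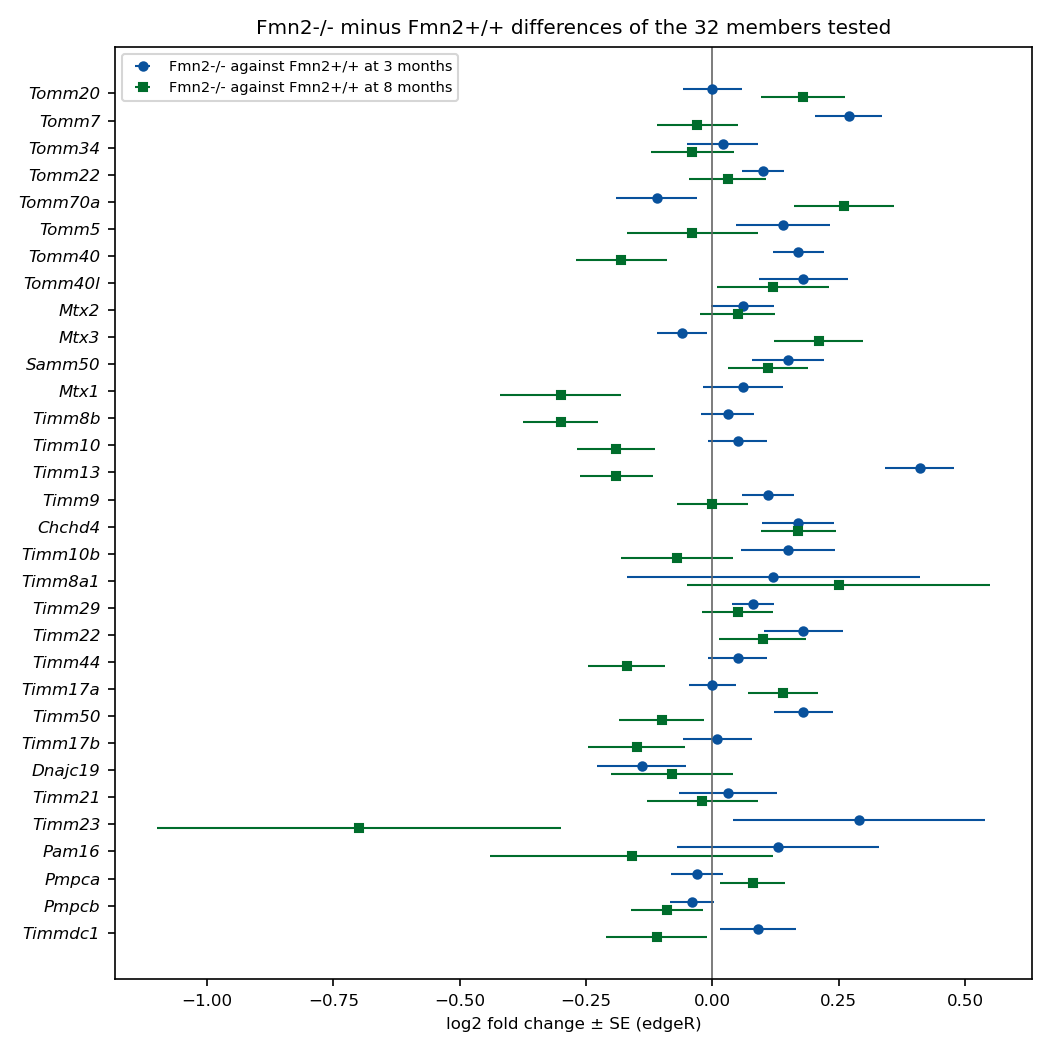
Log2 fold change of Fmn2-/- against Fmn2+/+ mice with its standard error from edgeR, for the 32 members tested, at 3 months (blue circles) and 8 months (green squares). At 3 months 25 of 32 values lie above 0, and at 8 months 14. In Timm13 the value goes from 0.41 at 3 months to -0.19 at 8 months.

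To ask whether the genotype difference itself changed with age, the interaction of age and genotype was fitted over the 18 mice, with negative values where the difference was lower at 8 than at 3 months. Here 3 of 33 members tested passed (9.09%), all lower: Timm13, Timm8b and Tomm40. Of 17046 genes tested 3.73% passed, 2.99% lower and 0.733% higher. The interaction was -0.61 for Timm13 (standard error 0.1, edgeR adjusted p = 0.00773), -0.35 for Timm8b (standard error 0.089, edgeR adjusted p = 0.0382) and -0.37 for Tomm40 (standard error 0.099, edgeR adjusted p = 0.0451). None of the 3 passed at either age alone. The values at 3 and 8 months were 0.41 and -0.19 for Timm13, 0.17 and -0.18 for Tomm40 and 0.03 and -0.30 for Timm8b, and with the correction for length and GC content the 8-month value of Timm13 was 0.06. In 26 of 33 members the interaction was below 0, where 47.1% of all genes lay above 0, with a median of -0.10 against -0.023 over all genes. At an unadjusted p under 0.05 there were 11 members, 9 lower (among them Timm50, Tomm7, Timm10, Mtx1, Timm44 and Timm23) and 2 higher (Tomm70a and Mtx3), against 22.9% of all genes (9.89% higher and 13.0% lower).

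**Figure D4:**
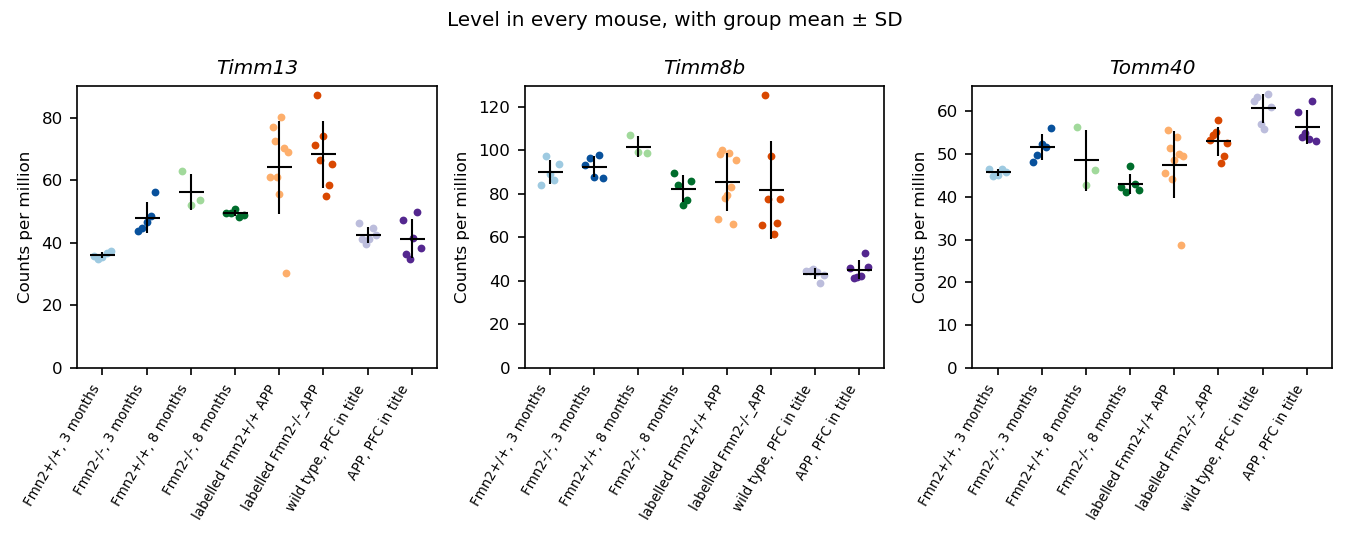
Level of Timm13, Timm8b and Tomm40 in every mouse, in CPM on an axis from 0, with the group mean and SD as a bar. Points are mice and colours the 8 groups. Timm13 ran from 34.96 to 37.5 CPM in Fmn2+/+ mice of 3 months and from 43.9 to 56.3 in Fmn2-/- mice, but at 8 months from 52.2 to 62.8 and from 48.4 to 50.9.

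The same 3 members passed with DESeq2. Over the alternatives other than leaving out a mouse, between 0 and 1414 genes of all passed, against 635 in the main fit. Timm13 passed in 17 of 18 fits with a mouse left out, the exception being the fit without 8-month Fmn2+/+ replicate 1 (-0.51, edgeR adjusted p = 0.0707). Timm8b passed in 6 of these 18 fits and Tomm40 in 2. Timm13 alone passed with 8-month Fmn2-/- replicates 2 and 3 summed (-0.59, edgeR adjusted p = 0.0189). Timm8b was then at -0.32 (edgeR adjusted p = 0.0691). With lane as a covariate none of the 3 passed, at -0.38 for Timm13, -0.32 for Timm8b and -0.13 for Tomm40 (edgeR adjusted p = 0.114, 0.16 and 0.5).

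The differences went with the composition of the transcripts. GC content was taken from the longest transcript of each gene, and length from all its exons. Across the 17003 genes tested with an annotation, Spearman's rho of the interaction was -0.45 with GC content and 0.32 with exon length. Across the 33 members it was -0.66 and 0.66. At 3 months rho with GC content was 0.33 over all genes and 0.44 over the members, and at 8 months -0.44 and -0.54. These are descriptions across genes that share the libraries, and genes are not independent replicates. Timm13 has 58.2% GC and 1371 bases of exon, and Tomm70a, with the highest interaction of the members (0.37), has 40.7% GC and 9777 bases. With a correction of each library for length and GC content, the interaction was -0.21 for Timm13 (edgeR adjusted p = 0.36), -0.07 for Timm8b (adjusted p = 0.732 by edgeR) and -0.27 for Tomm40 (adjusted p = 0.175 by edgeR), and 0 members passed.

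**Figure D5:**
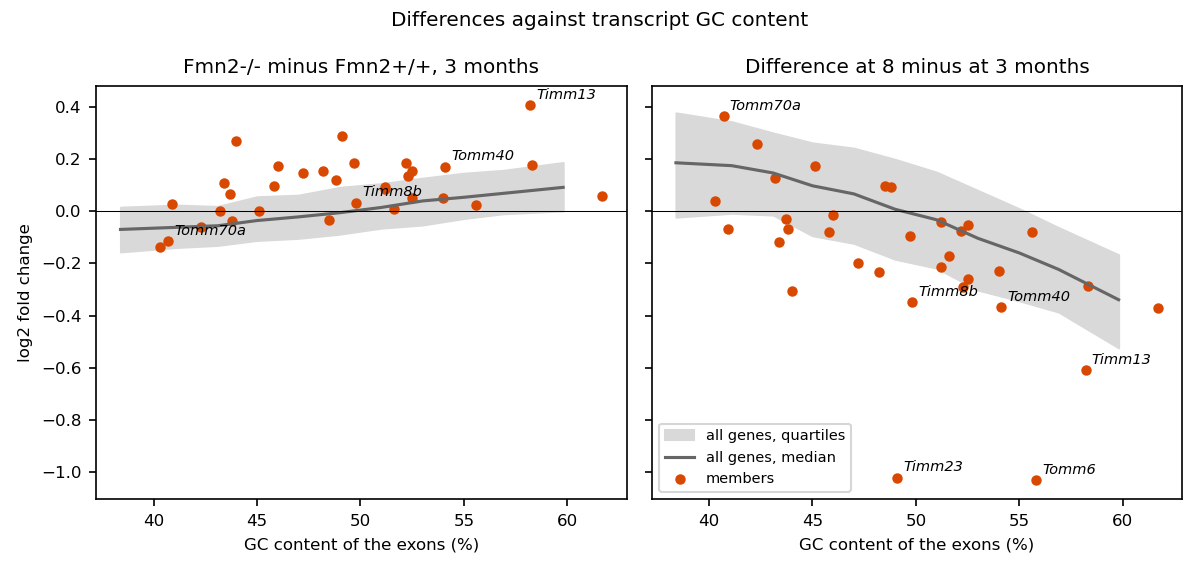
Log2 fold change against GC content, in percent, for the 3-month comparison (left) and the interaction of age and genotype (right). GC content is that of each gene's longest transcript, although the axis names the exons. The grey line and band are the median and quartiles of all genes tested in bins of GC content, and orange points are members. The median of all genes ran upward at 3 months (rho 0.33) and downward in the interaction (rho -0.45), with 24 of 32 members above it at 3 months and 24 of 33 below it in the interaction, and the low-count Timm23 and Tomm6 far below it in the interaction.

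The promoters of the 3 members that passed in the interaction are shown, and these genes were picked by that call alone. They are RefSeq windows of GRCm38.p6, from 250 bases before to 50 after the start of transcription, 5′ to 3′ on the gene's strand: chr10:80900920-80901219 (minus) for Timm13, chr9:50603651-50603950 (plus) for Timm8b and chr7:19715380-19715679 (minus) for Tomm40. Capitals mark matches, on either strand, to CCCGCCCC (a GC box bound by Sp factors), CCGGAAGC (an ETS motif) or GCGCA, any base and GCGC in a row (the motif of nuclear respiratory factor NRF1).
Timm13: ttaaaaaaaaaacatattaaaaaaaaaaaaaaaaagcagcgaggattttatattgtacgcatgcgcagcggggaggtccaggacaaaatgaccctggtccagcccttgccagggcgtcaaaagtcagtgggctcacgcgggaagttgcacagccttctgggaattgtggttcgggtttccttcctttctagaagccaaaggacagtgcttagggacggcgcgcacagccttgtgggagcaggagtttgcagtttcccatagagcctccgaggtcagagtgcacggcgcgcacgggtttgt
Timm8b: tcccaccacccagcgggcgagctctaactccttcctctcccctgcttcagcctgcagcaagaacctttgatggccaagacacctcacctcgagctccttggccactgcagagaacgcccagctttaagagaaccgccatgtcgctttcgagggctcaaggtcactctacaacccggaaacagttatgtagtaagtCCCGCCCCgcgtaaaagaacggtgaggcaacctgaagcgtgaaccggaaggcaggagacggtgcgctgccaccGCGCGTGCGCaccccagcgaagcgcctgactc
Tomm40: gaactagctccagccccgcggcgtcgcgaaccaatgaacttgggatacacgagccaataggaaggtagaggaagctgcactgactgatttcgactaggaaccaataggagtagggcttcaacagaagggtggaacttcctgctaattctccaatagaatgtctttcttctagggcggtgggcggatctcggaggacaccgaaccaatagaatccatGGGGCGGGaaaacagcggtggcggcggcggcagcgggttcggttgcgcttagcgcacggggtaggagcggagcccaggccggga
The Timm13 window held no exact match to any of the 3 motifs, and near matches were not searched for. Timm8b held the GC box from 55 bases before the start and the NRF1 motif from 18 bases after it, as its reverse complement. Tomm40 held the GC box, also reversed, from 34 bases before the start. RefSeq windows were matched for 32 of the 35 members, 34 windows in all. The GC box was in 35.3% of them and in 16.5% of 32851 windows of all genes, the ETS motif in 17.6% and 2.98%, and the NRF1 motif in 11.8% and 4.60%. The median GC content was 58.3% in the members' windows and 52.7% in all. These are matches of letters, with no measurement of binding.

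The other role groups had no member that passed in any comparison, and each is represented by the gene with its smallest unadjusted p at 3 or 8 months. For the SAM complex this was Mtx1 (metaxin 1, chromosome 3 from 89209081 to 89227088), at 18.7, 21.3, 19.9, 22.3 and 19.9 CPM in Fmn2+/+ and 21.5, 19.6, 19.3, 21.4 and 24.6 CPM in Fmn2-/- mice of 3 months. At 8 months it was at 26.1, 18.02 and 21.2 CPM in Fmn2+/+ and 16.9, 17.3, 16.4, 18.1 and 20.96 CPM in Fmn2-/- mice. The groups overlapped at both ages, and at 8 months the log2 fold change was -0.30 (standard error 0.12, edgeR adjusted p = 0.169).

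For TIM22 it was Timm22, the carrier translocase channel (chromosome 11 from 76406952 to 76416292). It was at 22.2, 24.7, 25.8, 21.9 and 25.04 CPM in Fmn2+/+ and 24.1, 29.4, 27.7, 25.3 and 30.2 CPM in Fmn2-/- mice of 3 months, and at 29.5, 27.3 and 29.1 against 33.7, 28.3, 27.5, 32.5 and 30.9 CPM at 8 months. The groups overlapped at both ages, at log2 fold changes of 0.18 and 0.10 (edgeR adjusted p = 0.442 and 0.505).

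For TIM23 it was Timm50, the presequence receptor of the inner membrane (chromosome 7 from 28305516 to 28312072). At 3 months it was at 21.1, 21.1, 20.6, 22.0 and 20.9 CPM in Fmn2+/+ and 23.99, 23.8, 22.7, 23.02 and 26.3 CPM in Fmn2-/- mice, without overlap, at a log2 fold change of 0.18 (standard error 0.059, edgeR adjusted p = 0.343). At 8 months it was at 24.8, 25.4 and 28.3 CPM in Fmn2+/+ and 23.7, 23.2, 24.7, 26.1 and 23.3 CPM in Fmn2-/- mice, with overlap. The 8-month log2 fold change was -0.10 (standard error 0.084, edgeR adjusted p = 0.511), and the interaction of -0.29 (edgeR adjusted p = 0.0792) did not pass and was 0.01 with the length and GC correction.

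For the processing peptidase it was Pmpcb (chromosome 5 from 21737141 to 21757152), at 74.9, 73.0, 74.7, 79.4 and 79.7 CPM in Fmn2+/+ and 75.3, 76.8, 75.7, 74.5 and 71.3 CPM in Fmn2-/- mice of 3 months. At 8 months it was at 76.0, 72.5 and 76.3 CPM against 75.5, 68.2, 64.7, 67.1 and 74.4 CPM. The groups overlapped at both ages, with log2 fold changes of -0.04 and -0.09 (edgeR adjusted p = 0.805 and 0.45). Timmdc1, a complex I assembly factor with a Timm-like domain, was at 14.8, 16.3, 15.7, 16.2 and 16.5 CPM in Fmn2+/+ and 17.3, 17.2, 14.4, 18.3 and 17.9 CPM in Fmn2-/- mice of 3 months. At 8 months it was at 19.4, 19.8 and 16.1 against 16.02, 16.8, 17.9, 19.0 and 15.6 CPM, also with overlap (edgeR adjusted p = 0.693 and 0.566).

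Of 27 partner genes of the import pathway outside the symbol rule, all were tested. At 3 and at 8 months 0 passed in edgeR's test, with 2 and 5 at an unadjusted p under 0.05 (7.41% and 18.5%, against 10.5% and 23.3% of all genes). Hspa8, the cytosolic Hsc70 chaperone that delivers precursors to Tomm70a, had the smallest p at both ages, with log2 fold changes of -0.29 and -0.44 (edgeR adjusted p = 0.21 and 0.0608), and lay lower in every Fmn2-/- than in every Fmn2+/+ mouse at either age. In the interaction 1 partner passed, Romo1, a small inner membrane protein of the TIM23 complex (3.7%, against 3.73% of all genes). Romo1 was at 14.8, 14.4, 12.1, 13.96 and 12.7 CPM in Fmn2+/+ and 13.9, 15.2, 16.6, 18.6 and 22.6 CPM in Fmn2-/- mice of 3 months, and at 26.7, 19.5 and 19.9 CPM against 16.5, 17.9, 19.5, 18.3 and 14.9 CPM at 8 months. Its interaction was -0.73 (standard error 0.19, edgeR adjusted p = 0.0391), and it passed in 4 of 18 fits with a mouse left out. With the length and GC correction it was -0.18 (edgeR adjusted p = 0.7) and with lane as a covariate -0.22 (edgeR adjusted p = 0.607). In the cross and in the PFC-titled mice 0 partners passed, with 1 and 2 at an unadjusted p under 0.05.

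In the cross, 0 of 32 members passed between mice labelled FMN2-/-_APP and mice labelled FMN2 +/+ APP at a log2 fold change of 0.5 or more in size with edgeR, and 0 with DESeq2, where 0.774% of 16656 genes passed with edgeR. At an unadjusted p under 0.05 there were 4 members, against 16.6% of all genes (8.87% higher and 7.77% lower): Timm50 (0.18) and Tomm34 (0.14) with higher and Mtx2 (-0.21) and Tomm20 (-0.18) with lower values in mice labelled FMN2-/-_APP. Log2 fold changes were above 0 in 16 members and below in 16, where 51.7% of all genes lay above 0. In 0 members did the groups separate, where 0.354% of all genes were higher and 0.186% lower without overlap. Because Fmn2 went against the labels, no direction with Fmn2 genotype was drawn.

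Timm13 ran from 30.4 to 80.3 CPM (median 69.04, n = 9) in mice labelled FMN2 +/+ APP and from 55.0 to 87.3 CPM (median 66.5, n = 7) in mice labelled FMN2-/-_APP. Tomm40 ran from 28.9 to 55.6 CPM (median 49.6) and from 48.04 to 57.97 (median 53.2), and Timm8b from 66.2 to 100.4 (median 83.0) and from 61.6 to 125 (median 77.6). The groups overlapped in all 3 genes, and labelled FMN2 +/+ APP replicate 8 was the lowest mouse of its group in each of them. Mtx1 ran from 15.4 to 21.5 CPM (median 19.7) and from 18.3 to 24.4 (median 22.1), Timm22 from 31.02 to 45.1 (median 37.6) and from 30.2 to 44.8 (median 33.5), and Timm50 from 22.98 to 30.7 (median 27.5) and from 28.1 to 36.4 (median 31.5). Pmpcb ran from 66.03 to 73.3 CPM (median 69.96) and from 61.4 to 72.4 (median 66.7), and Timmdc1 from 14.8 to 21.1 (median 17.1) and from 16.8 to 21.2 (median 20.6). In none of these 5 genes did the groups separate. Oligodendrocyte markers summed to between 1070 and 1780 CPM in mice labelled FMN2 +/+ APP and between 1500 and 2640 in mice labelled FMN2-/-_APP, and their part was not tested.

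In the mice with PFC in the title, 0 of 33 members passed between APP and wild type at a log2 fold change of 0.5 or more in size with edgeR, and 0 with DESeq2, where 2.34% of 16733 genes passed with edgeR. At an unadjusted p under 0.05 there were 2 members, against 14.3% of all genes (7.55% higher and 6.77% lower): Timm22 with higher values in APP mice (0.16, edgeR adjusted p = 0.33) and Tomm5, a small TOM subunit, with lower values (-0.20, edgeR adjusted p = 0.348). Log2 fold changes were above 0 in 15 members, where 49.8% of all genes lay above 0. Timm22 ran from 21.6 to 27.1 CPM (median 23.8, n = 6) in wild-type and from 23.8 to 31.4 (median 25.9, n = 6) in APP mice, with overlap. Timm13 ran from 39.7 to 46.4 CPM (median 41.9) and from 34.8 to 49.99 (median 39.98), Timm8b from 39.0 to 45.6 (median 44.2) and from 41.2 to 52.8 (median 44.3), and Tomm40 from 55.9 to 64.2 (median 61.8) and from 53.1 to 62.5 (median 54.6). All overlapped, as did the other members, since 0 of 33 separated the groups in either direction, where 2.43% of all genes were higher and 0.95% lower. Mtx1, Timm50, Pmpcb and Timmdc1 ran from 18.7 to 22.0, 22.0 to 25.5, 39.7 to 42.6 and 14.97 to 17.4 CPM in wild-type and from 17.6 to 22.2, 20.3 to 26.8, 37.6 to 46.1 and 13.1 to 16.3 CPM in APP mice. In the same mice all 4 microglial markers passed, summing to between 374 and 492 CPM in APP and between 239 and 264 in wild-type mice. Oligodendrocyte markers summed to between 1210 and 1850 CPM in APP and between 1990 and 5680 in wild-type mice. Of these, 1 of 4 was called lower, and the median log2 fold change was -0.80. All wild-type mice were on lane 5 and all APP mice on lane 7, so lane and genotype cannot be told apart.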

How the data were processed

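RNA was isolated with TRIZOL and libraries were made with the TruSeq RNA v2 kit, which does not keep the strand. The authors aligned reads with STAR to mm10 and deposited HTSeq read counts per Ensembl gene, without normalization. In each cross group 1 mouse had 2 runs, which were summed, giving 46 mice from 48 tables. Each comparison was fitted with edgeR 4.0.16 (TMM, filterByExpr, quasi-likelihood test, Benjamini-Hochberg adjustment over all genes tested), tested on simulated data first. Calls needed an adjusted p under 0.05 with a log2 fold change of 0.25 or more in size, or 0.5 in the APP comparisons. The labels number replicates without naming animals, so p-values measure the spread between these samples, which may be technical. Levels per mouse used 1 TMM scale over all mice, fits their own. Shared sequence was found with BLAST 2.17.0 against all transcripts. Alternatives were DESeq2 1.42.0, RLE size factors, no filter on low counts, a correction for length and GC content, lane, a replicate block, summing near-identical libraries, drawing reads down and leaving out each mouse. Every member may be named. Values in each mouse are given for members called in at least 1 comparison and otherwise for the smallest p of a role. The members and lists were chosen with earlier results of these data known.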

Additional observations from a re-analysis of the deposited data

Results flagged for a closer look

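In labelled FMN2 +/+ APP replicate 8, Timm13 stood at 30.4 CPM, where the next lowest of the 9 mice was at 55.6. In the same mouse Tomm40 stood at 28.9 CPM, where the next lowest was at 44.3. Both gaps were large for the range of the group by Dixon's criterion, which was applied to 56 sets of a gene and a group. The criterion marks about 1 in 20 by chance, and it marked 2 of the 56 sets, no more than that rate gives. In the main fit the interaction passed in Timm13 (-0.61, edgeR adjusted p = 0.00773), Timm8b (-0.35, edgeR adjusted p = 0.0382) and Tomm40 (-0.37, edgeR adjusted p = 0.0451). All 3 calls were lost under the correction for length and GC content and with lane as a covariate. With RLE size factors Timm13 and Timm8b passed and Tomm40 did not. Timm8b passed in 6 and Tomm40 in 2 of 18 fits with a mouse left out.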

How the results depend on the processing

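The thresholds were passed by 0 members in the cross and in the PFC-titled mice under every alternative run. At 3 months leaving out a mouse gave 0 to 1 member, with 1 only without Fmn2-/- replicate 1, where lane and genotype coincide. DESeq2 and the fit without a filter on low counts gave 1 member each. At 8 months the same alternatives gave 1 each, leaving out a mouse 0 to 6, and drawing all libraries down to the smallest turned the median from -0.03 to 0.04. The interaction gave 3 members, 2 with RLE size factors, 1 without the filter on low counts and 1 with 8-month Fmn2-/- replicates 2 and 3 summed. It gave 0 members with the length and GC correction and 0 with lane as a covariate. With a mouse left out it gave 0 to 9 members (0 without 8-month Fmn2+/+ replicate 1, 9 without replicate 2). Same-numbered mice deviated together little on average (mean r over genes 0.0577, -0.0353, 0.0719 and 0.00825 in the 4 comparisons). Mice of different number gave -0.011, 0.00906, -0.0091 and -0.00159. No comparison had every pair above 0.1, and single pairs ran from -0.273 to 0.27 in the cross. The labels do not say what mice of the same number share, and so few pairs cannot settle it. With the replicate block the interaction gave 0 members, 0 with the block and the length and GC correction, and 0 in an unblocked fit on the mice of the block, an alternative chosen after seeing the data, which rests on fewer mice. The block changed no other count of members.

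Some values without a call changed sign. With the length and GC correction Timm8b at 3 months went to -0.05, Timm13 at 8 months to 0.06, Timm10 and Timm50 in the interaction to 0.05 and 0.01, and Timm8b in the PFC-titled mice to -0.02. With the replicate block and that correction the values were -0.05 for Timm8b at 3 months, 0.07 for Timm13 at 8 months, 0.02 for Timm10 in the interaction and -0.02 for Timm8b in the PFC-titled mice. With lane as a covariate Chchd4 at 3 months went to -0.06. Timm13 in the cross went to -0.0021 with the replicate block and -0.00064 without labelled FMN2 +/+ APP replicate 8 (-0.00064 to 0.13 with a mouse left out), and in the PFC-titled mice to 0.0044 and 0.01 without APP replicates 2 and 3 (-0.09 to 0.01 with a mouse left out). The cause was not tested. The ratio of the summed member level between PFC-titled wild-type and 3-month Fmn2+/+ mice was 0.767 per kilobase and 0.848 without division by length.

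Over all genes, counts of calls ran from 2 to 90 at 3 months (5 as reported), 3 to 3087 at 8 months (166), 0 to 2791 in the interaction (635), 73 to 357 in the cross (129) and 365 to 500 in the PFC-titled mice (392). Low counts limit the weakest members: Tomm20l and Timm8a2 did not pass the filter in any comparison, and Tomm6 passed it in the interaction and the PFC-titled mice only.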
